A study of Arabidopsis thaliana with 12 samples.

Results

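The 10 genes described here belong to the aliphatic glucosinolate pathway of Arabidopsis thaliana and were followed in 12 libraries. They were taken from the tables by locus identifier: 10 of the 33602 genes in the deposited tables, and all 10 were among the 22924 genes that passed the filter on low counts. Of these, 6 encode enzymes of synthesis, namely BCAT4 (AT3G19710), MAM1 (AT5G23010), MAM3 (AT5G23020), CYP79F1 (AT1G16410), CYP79F2 (AT1G16400) and CYP83A1 (AT4G13770). FMO GS-OX1 (AT1G65860) encodes an enzyme of side chain modification, and MYB28 (AT5G61420), MYB29 (AT5G07690) and MYB76 (AT5G07700) encode transcription factors.

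Glucosinolates are sulfur-rich defence compounds of the cabbage order, and the aliphatic ones are made from methionine. Methionine is first lengthened by cycles of chain elongation, the product is turned into the glucosinolate core by cytochrome P450 enzymes and later steps, and the side chain is then modified. When tissue is damaged, myrosinases split glucosinolates into isothiocyanates, nitriles and related products. MYB28, MYB29 and MYB76 are known activators of the aliphatic pathway.

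Whole seedlings of accession Col-0 were either wild type (WT) or of a single stable line that carries 35S:HIN1 (called HIN1 here), in which the cauliflower mosaic virus 35S promoter drives the gene HIN1 (AT3G11290) in most tissues. Seedlings of both genotypes grew for 7 days on sugar-free half-strength medium under continuous light and were then moved to polyethylene glycol plates at -0.7 MPa (stress) or to fresh plates at -0.25 MPa (control), where they stayed for 96 h. The groups are HIN1 stress, HIN1 control, WT stress and WT control, with 3 libraries each from 3 independent experiments, and the WT libraries also belong to another series on a different mutant. Because RNA came from whole seedlings, fewer cells of a type and less RNA per cell cannot be told apart.

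Gene reads ran from 58.0 M to 68.56 M per library, and those of the 10 genes from 157 for MYB76 to 28254 for MAM1. HIN1 itself stood at 175.6, 194.6 and 210.7 RPKM (reads scaled to gene length and to the library total, as deposited) in HIN1 stress and at 13.3, 13.6 and 12.5 RPKM in WT stress. It stood at 139.3, 168.0 and 138.4 RPKM in HIN1 control and at 12.7, 11.8 and 11.8 RPKM in WT control, so every library matched its genotype label. WT control replicate 1 stood apart on the third principal component, at 47 against 6.2 and -0.2 for the other libraries of its group, and HIN1 stress replicate 3 stood at 30.1 against 7.3 and 6.9. HIN1 stress replicate 3 was the lowest of its group for 8 of the 10 genes, but other groups had such libraries too. HIN1 control replicate 3 was the lowest of its group for 9 of the 10 genes and WT control replicate 2 for 7. WT stress replicate 3 was the highest of its group for 8. Reads of chloroplast genes were highest in the library numbered 3 of every group, at 0.408% to 0.75% of gene reads.

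All 17 markers of leaf, guard cell, root and root hair had reads in all 12 libraries. The summed leaf markers ran from 30464 to 31077 CPM (counts scaled to the TMM-adjusted library total) in HIN1 stress, 24790 to 33402 CPM in HIN1 control, 28363 to 30005 CPM in WT stress and 33877 to 41380 CPM in WT control. Of the 6 leaf markers, edgeR and DESeq2 called 0 under stress in HIN1, with 0 at an unadjusted p below 0.05. In WT 4 fell, or 1 without the 2 libraries that stood apart. In HIN1 against WT at control all 6 had log2 fold changes below 0, with a median of -0.39. By edgeR 0 of the 6 were called there and 5 had an unadjusted p below 0.05, and DESeq2 called 3, all lower in HIN1. The summed guard cell markers ran from 16.6 to 24.2 CPM in HIN1 stress, 30.7 to 33.5 CPM in HIN1 control, 19.1 to 23.0 CPM in WT stress and 36.6 to 41.0 CPM in WT control, and 2 of 3 fell in both genotypes. Summed root markers ran from 3161 to 3192 CPM in HIN1 stress, 3661 to 3860 CPM in HIN1 control, 3298 to 3441 CPM in WT stress and 3696 to 4466 CPM in WT control. Summed root hair markers ran from 22.0 to 27.9 CPM in HIN1 stress, 18.8 to 23.8 CPM in HIN1 control, 25.0 to 34.0 CPM in WT stress and 5.75 to 21.4 CPM in WT control. WT control replicate 3 held the 21.4 CPM, against 5.75 and 9.83 CPM in replicates 1 and 2. Under stress edgeR called 31.6% of all genes in WT and 27.1% in HIN1. Of the 5 root markers 1 rose and 1 fell in each genotype, or 0 without the 2 libraries that stood apart. Of the 3 root hair markers 2 rose in WT and 0 in HIN1. The part of these markers in the results was not tested.

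Of the 10 genes, 3 pairs lie side by side as close copies. In RefSeq's annotation of TAIR10.1, MAM1 spans 7703041 to 7706973 and MAM3 spans 7718118 to 7721866 of chromosome 5, 11144 bases apart. CYP79F2 spans 5605044 to 5607498 and CYP79F1 spans 5608682 to 5612064 of chromosome 1, 1183 bases apart. MYB29 spans 2446669 to 2448584 and MYB76 spans 2450027 to 2451807 of chromosome 5, 1442 bases apart. No other coding gene lies between the members of a pair. Their coding sequences were identical at 84.2%, 91.9% and 79.2% of aligned bases, and the longest identical run was 100 bases, in the CYP79F pair. The deposited share of reads that map to several sites was 0 for all 10 genes in all 12 libraries.

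The 250 bases before the annotated start are shown for the 3 cytochrome P450 genes: CYP79F1 and CYP79F2, which moved in opposite directions under stress, and CYP83A1. Sequences are from RefSeq, TAIR10.1, 5′ to 3′ on the gene's strand: chr1:5608432-5608681 and chr1:5604794-5605043 on the plus strand for CYP79F1 and CYP79F2, and chr4:7992430-7992679 on the minus strand for CYP83A1. Capitals mark motif matches.
CYP79F1: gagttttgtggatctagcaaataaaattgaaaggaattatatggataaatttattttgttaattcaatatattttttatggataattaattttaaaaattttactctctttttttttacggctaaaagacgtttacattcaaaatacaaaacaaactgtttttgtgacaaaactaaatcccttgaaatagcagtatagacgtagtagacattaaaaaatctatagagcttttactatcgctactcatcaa
CYP79F2: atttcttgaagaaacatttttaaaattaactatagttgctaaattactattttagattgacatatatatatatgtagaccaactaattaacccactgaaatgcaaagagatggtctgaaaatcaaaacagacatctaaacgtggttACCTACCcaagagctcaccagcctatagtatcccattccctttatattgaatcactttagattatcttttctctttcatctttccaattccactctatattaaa
CYP83A1: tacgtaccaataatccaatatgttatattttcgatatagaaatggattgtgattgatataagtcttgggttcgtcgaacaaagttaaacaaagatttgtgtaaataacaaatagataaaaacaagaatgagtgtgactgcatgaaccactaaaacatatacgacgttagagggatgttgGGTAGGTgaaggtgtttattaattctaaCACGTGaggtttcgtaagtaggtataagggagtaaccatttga

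The windows of CYP79F1 and CYP79F2 were identical at 54.0% of the window after alignment with gaps, 135 bases of 220 aligned. The 2 windows were 75.6% and 70.0% A or T. No unrelated pair of windows was aligned, so this value does not show shared sequence. The motifs were searched on both strands of the 3 windows shown. The AC element (ACCTACC or ACCAACC), a form bound by plant MYB proteins, lay in CYP79F2, beginning 104 bases before the start, and in CYP83A1, as its reverse complement 71 bases before the start. The G-box (CACGTG) lay in CYP83A1, 43 bases before the start. No match of the ABA response element (ACGTGGC or ACGTGTC, which can overlap a G-box) was in the 3 windows. Over 27443 RefSeq genes, 3.79% of such windows hold the AC element, 6.49% the G-box and 6.39% the ABA response element. The 3 genes were picked with their motifs known, so their matches are not compared with these shares. These matches describe the letters of the windows only.

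Under stress most of the 10 genes moved in both genotypes, but not all one way. In HIN1, stress against control changed all 10: 7 rose and 3 fell, where 27.1% of all genes tested were called, 14.7% higher and 12.5% lower. In WT, stress against control changed 8: 5 rose and 3 fell, where 31.6% of all genes were called, 14.9% higher and 16.7% lower. A call is an adjusted p below 0.05 in the quasi-likelihood test of edgeR, with p-values adjusted by the Benjamini-Hochberg method across the 22924 genes. Every adjusted p of a gene comes from this test unless another tool is named, and the error beside a log2 fold change is its SE. The genes that fell were MAM3, CYP79F2 and MYB28 in both genotypes. Without the 2 libraries that stood apart, 7 rose and 2 fell in HIN1, MYB28 no longer passing the test, and 5 rose and 3 fell in WT. That fit called 4940 of 23039 genes in HIN1 and 5714 in WT. The median log2 fold change of the 10 genes was 0.63 in HIN1 and 0.24 in WT, against medians of 0.00722 and -0.00351 over all genes. Libraries of stress and control did not overlap for 9 of the 10 genes in HIN1, where 45.4% of all genes did not overlap, and for 10 of 10 in WT, where 43.1% did not.

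**Figure D1:**
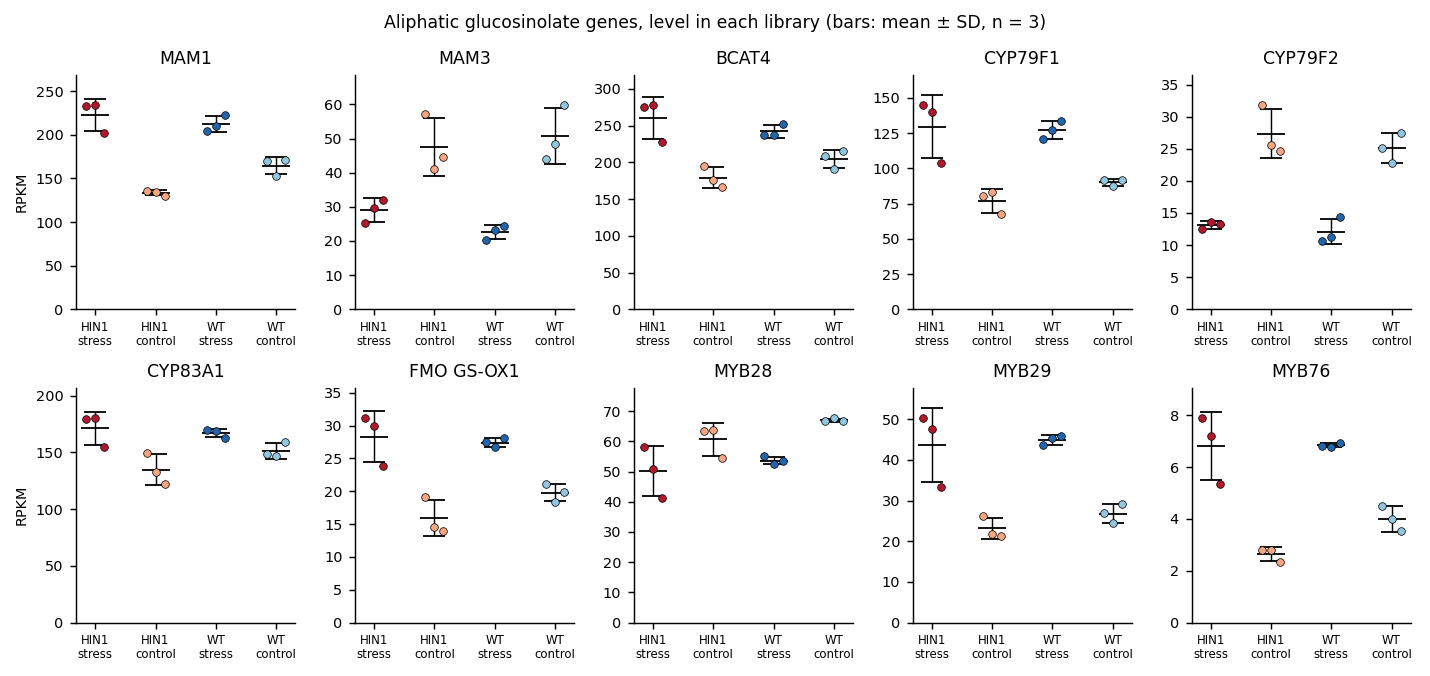
RPKM of the 10 genes in each library (points) by group, with the mean and SD of 3 libraries (bars), on axes that start at 0. MAM3, CYP79F2 and MYB28 are lower in the stress groups, and the other 7 genes have higher means there.

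Chain elongation begins with BCAT4, the aminotransferase that turns methionine into its keto acid, and MAM1 and MAM3 are the synthases that add carbon to the chain. In Col-0, MAM1 is known for the short side chains and MAM3 for chains of all lengths, including the long ones. BCAT4 stood at 276.1, 278.0 and 228.0 RPKM in HIN1 stress, against 195.1, 176.2 and 167.0 RPKM in HIN1 control. Its WT stress libraries held 237.4, 237.9 and 252.9 RPKM, against 208.2, 191.4 and 214.9 RPKM in WT control. Stress libraries were the higher ones in both genotypes, with no overlap. BCAT4 rose 1.45-fold in HIN1 (log2 fold change 0.53 ± 0.078, SE, adjusted p = 0.000473). In WT the fold was 1.13 and did not pass the test (log2 fold change 0.18, 95% interval 0.01 to 0.35, adjusted p = 0.103).

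MAM1 stood at 233.3, 234.0 and 201.8 RPKM in HIN1 stress, against 136.0, 134.5 and 130.1 RPKM in HIN1 control. The values in WT stress were 204.0, 210.4 and 222.8 RPKM, against 169.6, 153.3 and 171.1 RPKM in WT control. Every stress library lay above every control library of either genotype. MAM1 rose 1.66-fold in HIN1 (log2 fold change 0.73 ± 0.067, adjusted p = 1.94e-05) and 1.23-fold in WT (0.30 ± 0.067, adjusted p = 0.00563).

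MAM3, next to it on the chromosome, moved the other way. Its levels were 25.3, 29.8 and 32.0 RPKM in HIN1 stress, against 57.2, 41.0 and 44.7 RPKM in HIN1 control. WT stress gave 20.4, 23.1 and 24.4 RPKM, against 44.0, 48.3 and 59.8 RPKM in WT control. The stress libraries of both genotypes lay below all 6 control libraries. MAM3 fell to 0.608 of its control level in HIN1 (log2 fold change -0.72 ± 0.14, adjusted p = 0.003) and to 0.427 in WT (-1.23 ± 0.14, adjusted p = 7.61e-05).

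CYP79F1 and CYP79F2 turn the elongated methionines into aldoximes, the first step of the core. CYP79F1 is known to take both short and long chains, and CYP79F2 the long ones. CYP79F1 stood at 144.8, 140.2 and 103.7 RPKM in HIN1 stress, against 80.2, 83.3 and 67.4 RPKM in HIN1 control. In WT the stress libraries stood at 121.1, 127.5 and 133.9 RPKM, against 91.5, 87.4 and 91.7 RPKM in WT control. All stress libraries were above all control libraries, and HIN1 stress replicate 3 was the lowest of them. CYP79F1 rose 1.68-fold in HIN1 (log2 fold change 0.75 ± 0.10, adjusted p = 0.00035) and 1.35-fold in WT (0.43 ± 0.10, adjusted p = 0.00853).

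CYP79F2 was at 12.5, 13.6 and 13.3 RPKM in HIN1 stress, against 31.8, 25.6 and 24.7 RPKM in HIN1 control. In WT stress it was at 10.7, 11.2 and 14.3 RPKM, against 25.1, 22.8 and 27.4 RPKM in WT control. No stress library reached the level of any control library. CYP79F2 fell to 0.478 of its control level in HIN1 (log2 fold change -1.06 ± 0.12, adjusted p = 8.25e-05) and to 0.459 in WT (-1.12 ± 0.12, adjusted p = 4.65e-05).

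CYP83A1 oxidises the aldoximes that the CYP79F enzymes make. Its levels were 179.3, 179.9 and 154.6 RPKM in HIN1 stress, against 149.4, 132.6 and 122.5 RPKM in HIN1 control. Its WT stress libraries held 169.8, 168.8 and 163.0 RPKM, against 148.4, 146.4 and 158.8 RPKM in WT control. The stress libraries were the higher ones within each genotype, by small gaps. CYP83A1 had the smallest response of the 7 genes with higher means. It rose 1.27-fold in HIN1 (log2 fold change 0.34 ± 0.068, adjusted p = 0.00345), and its fold of 1.05 in WT did not pass the test (log2 fold change 0.08, 95% interval -0.07 to 0.23, adjusted p = 0.42).

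FMO GS-OX1 oxidises the sulfur of the side chain. It stood at 31.1, 30.0 and 23.9 RPKM in HIN1 stress, against 19.1, 14.6 and 14.0 RPKM in HIN1 control. The values in WT stress were 27.5, 26.7 and 28.1 RPKM, against 21.1, 18.4 and 19.9 RPKM in WT control. Stress libraries were the higher ones throughout. FMO GS-OX1 rose 1.78-fold in HIN1 (log2 fold change 0.83 ± 0.11, adjusted p = 0.000302) and 1.32-fold in WT (0.40 ± 0.11, adjusted p = 0.019). The WT call was lost without WT stress replicate 3 (adjusted p = 0.0573) or WT control replicate 2 (adjusted p = 0.0541).

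**Figure D2:**
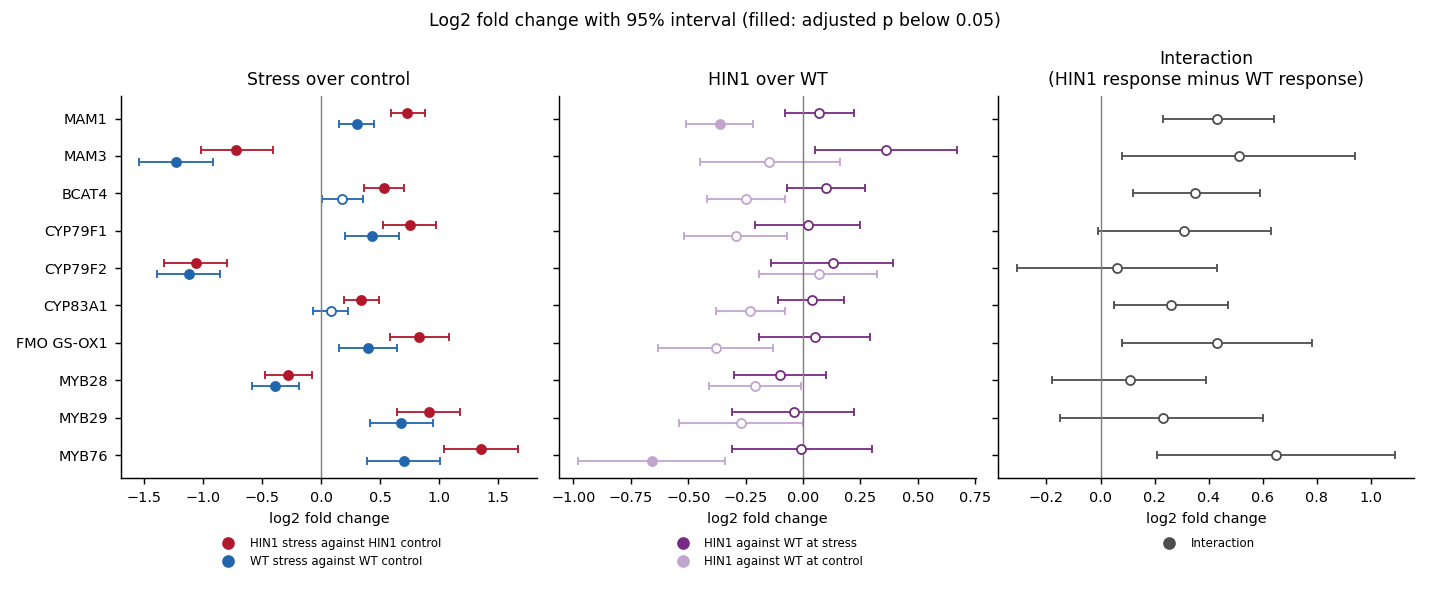
Log2 fold changes (points) with 95% intervals (bars) of the 10 genes for stress over control, HIN1 over WT and the interaction, which is the HIN1 response minus the WT response, with filled points for an adjusted p below 0.05. The interaction estimates lie between 0.06 and 0.65, all above 0 (with library totals unscaled, CYP79F2 is at -0.0034), and none is filled.

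The 3 transcription factors did not move together. MYB28, the factor with the highest level of the 3, stood at 58.0, 50.9 and 41.4 RPKM in HIN1 stress, against 63.6, 63.9 and 54.4 RPKM in HIN1 control. WT stress gave 55.0, 52.5 and 53.5 RPKM, against 66.6, 67.6 and 66.6 RPKM in WT control. The WT groups did not overlap, and the HIN1 groups did. MYB28 fell to 0.764 of its control level in WT (log2 fold change -0.39 ± 0.091, adjusted p = 0.00754). In HIN1 it fell to 0.823 (-0.28 ± 0.091, adjusted p = 0.0394), a call that was lost in 7 of the 12 fits that left out 1 library, with an adjusted p of up to 0.122 without HIN1 stress replicate 3. The other 6 such libraries were HIN1 stress replicate 2, HIN1 control replicates 1 and 2, and all 3 WT stress replicates.

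MYB29 stood at 50.2, 47.5 and 33.4 RPKM in HIN1 stress, against 26.2, 21.9 and 21.4 RPKM in HIN1 control. In WT the stress libraries stood at 43.6, 45.3 and 46.0 RPKM, against 26.9, 24.4 and 29.1 RPKM in WT control. All 6 stress libraries lay above all 6 control libraries. MYB29 rose 1.88-fold in HIN1 (log2 fold change 0.91 ± 0.12, adjusted p = 0.000283) and 1.60-fold in WT (0.68 ± 0.12, adjusted p = 0.00151).

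MYB76, its neighbour and the gene of the 10 with the lowest level, was at 7.88, 7.21 and 5.36 RPKM in HIN1 stress, against 2.79, 2.82 and 2.34 RPKM in HIN1 control. In WT stress it was at 6.83, 6.77 and 6.93 RPKM, against 4.51, 3.98 and 3.52 RPKM in WT control. It again separated the stress from the control libraries without overlap. MYB76 rose 2.56-fold in HIN1 (log2 fold change 1.35 ± 0.15, adjusted p = 5.7e-05) and 1.63-fold in WT (0.70 ± 0.14, adjusted p = 0.00317). Unlike the enzyme pairs, both copies of this pair rose in both genotypes.

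Within a library, the ratio of the copies of an enzyme pair shows the opposite movement without reference to other genes. MAM1 over MAM3 averaged 7.79 ± 1.46 in HIN1 stress and 2.86 ± 0.454 in HIN1 control, and 9.41 ± 0.493 in WT stress and 3.30 ± 0.505 in WT control (RPKM ratio, SD, n = 3 each). CYP79F1 over CYP79F2 averaged 9.90 ± 1.95 in HIN1 stress and 2.83 ± 0.376 in HIN1 control, and 10.7 ± 1.14 in WT stress and 3.61 ± 0.244 in WT control. Stress and control libraries did not overlap in either ratio or genotype. The MAM ratio was 2.72-fold higher under stress in HIN1 and 2.87-fold higher in WT, and the CYP79F ratio 3.47-fold and 2.96-fold. Each of these 4 differences had an exact two-sided permutation p of 0.1, the smallest that 3 against 3 libraries allow, and an adjusted p of 0.16 over the 8 ratio comparisons.

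Between genotypes the ratios were closer together. For the CYP79F pair the ratio in HIN1 control was 0.782 of that in WT control, with no overlap (exact permutation p = 0.1). For the MAM pair it was 0.866 of that in WT control, with overlap (exact permutation p = 0.5). Under stress the ratio in HIN1 was 0.916 of that in WT for the CYP79F pair and 0.819 for the MAM pair, both with overlap (exact permutation p = 0.7 and 0.3). Adjusted over the 8 comparisons, the p-values of these 4 were 0.16, 0.571, 0.7 and 0.4.

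**Figure D3:**
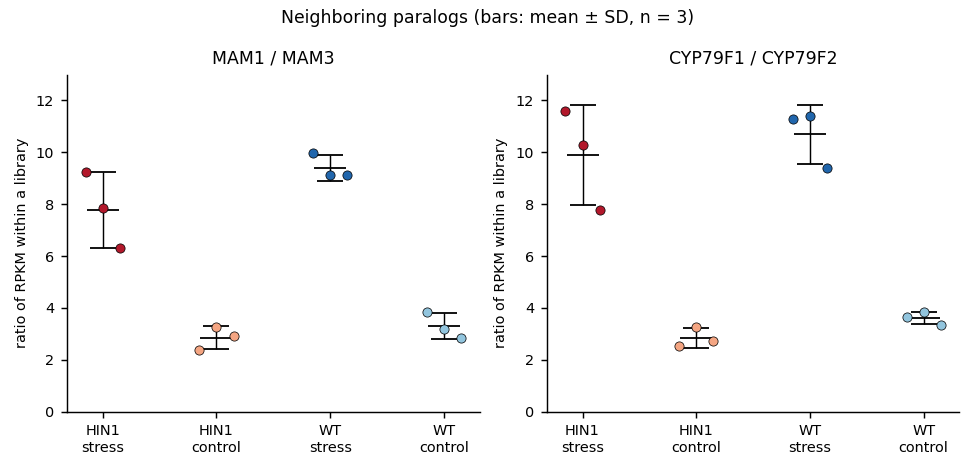
Ratio of the RPKM of neighbouring copies within each library (points) by group, with mean and SD of 3 libraries (bars). Ratios in the stress groups lie above all ratios of the control groups in both panels.

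HIN1 against WT at control water potential gave lower estimates for 9 of the 10 genes, of which 2 passed the test, where 2.76% of all genes were called, 2.19% higher and 0.576% lower. MAM1 was lower in HIN1, at 0.777 of its WT level (log2 fold change -0.36 ± 0.067, adjusted p = 0.0132). MYB76 was at 0.633 of its WT level (-0.66 ± 0.15, adjusted p = 0.0341). The other 7 estimates below 0 were -0.38 for FMO GS-OX1, -0.29 for CYP79F1, -0.27 for MYB29, -0.25 for BCAT4, -0.23 for CYP83A1, -0.21 for MYB28 and -0.15 for MAM3, and that of CYP79F2 was 0.07. The median over the 10 genes was -0.26, against -0.0176 over all genes, of which 45.4% had estimates above 0. At an unadjusted p below 0.05 there were 8 of the 10, against 19% of all genes. Libraries did not overlap in CPM for 7 of the 10 genes, all lower in HIN1, where 21.2% of all genes did not overlap. The 6 leaf markers had log2 fold changes with a median of -0.39 in this comparison, and their part in it was not tested. In the fit without WT control replicate 1, one of the libraries that stood apart, 0 of the 10 genes were called by edgeR, and likewise without HIN1 control replicate 2 or 3. MAM1 then had adjusted p-values of 0.0781, 0.0583 and 0.0519. These fits called 348 of 23132, 368 of 23127 and 438 of 23133 genes, against 633 of 22924 with all libraries. Leaving out 1 of HIN1 stress replicate 2, WT stress replicates 1 to 3 or WT control replicate 2 left MAM1 as the single call. The calls over all genes in these fits ran from 476 of 23138 to 614 of 23140. Without HIN1 control replicate 1, MYB76 lost its call (adjusted p = 0.0917) and FMO GS-OX1 was called lower (adjusted p = 0.0235), where 370 of 23145 genes were called. The share of all genes called depended on WT control replicate 3. Without that library edgeR called 2288 of 23146 genes, 1361 higher and 927 lower, and of the 10 genes it called the same 2, MAM1 and MYB76. DESeq2 called 5 of the 10 genes, all lower in HIN1, where it called 6.18% of all genes, 3.91% higher and 2.27% lower. The authors' deposited table gave 3 with an adjusted p below 0.05, namely MAM1, CYP79F1 and MYB76. The share of all genes below 0.05 in that table was not computed, so these 3 are not set against a background.

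HIN1 against WT under stress gave 0 calls among the 10 genes by edgeR and by DESeq2, where edgeR called 3.42% of all genes, 3.23% higher and 0.196% lower. At an unadjusted p below 0.05 there was 1 of the 10, against 10.6% of all genes. This was MAM3, at 1.28 times its WT level (log2 fold change 0.36, 95% interval 0.05 to 0.67, adjusted p = 0.324). The authors' deposited table gave MAM3 an adjusted p of 0.036 with a log2 fold change of 0.29 ± 0.09. The other 9 estimates were -0.10 for MYB28, -0.04 for MYB29, -0.01 for MYB76, 0.02 for CYP79F1, 0.04 for CYP83A1, 0.05 for FMO GS-OX1, 0.07 for MAM1, 0.10 for BCAT4 and 0.13 for CYP79F2. Their intervals reached no further than -0.31 and 0.39. The median over the 10 genes was 0.04, against -0.00548 over all genes.

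The interaction asks whether the response to stress differed between the genotypes. All 10 estimates were above 0, although that of CYP79F2 was -0.0034 when library totals were not scaled, and so were 54% of all genes. Their median was 0.33 against 0.0181 over all genes. By edgeR 0 of the 10 were called, where 0.157% of all genes were called, 0.153% higher and 0.00436% lower. At an unadjusted p below 0.05 there were 6 of the 10, against 9.17% of all genes. The 6 leaf markers were all above 0 as well, with a median of 0.52, and their part in these estimates was not tested. DESeq2 called 1 of the 10, where it called 0.811% of all genes: MAM1, with an estimate of 0.43 and an adjusted p of 0.00178. In edgeR the MAM1 estimate was 0.43 ± 0.095 (95% interval 0.23 to 0.64, adjusted p = 0.166). MYB76 had the largest estimate, 0.65 (95% interval 0.21 to 1.09, adjusted p = 0.41). CYP79F2 had the smallest, 0.06 (95% interval -0.31 to 0.43). The others were 0.51 for MAM3, 0.43 for FMO GS-OX1, 0.35 for BCAT4, 0.31 for CYP79F1, 0.26 for CYP83A1, 0.23 for MYB29 and 0.11 for MYB28. The interaction shares the control libraries with the comparison of genotypes at control, so the 2 sets of estimates are not independent. In the edgeR fit without WT control replicate 3, 238 of 23146 genes were called in the interaction, 102 higher and 136 lower. The 10 genes had 0 calls in every edgeR fit that left out 1 library.

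The other steps of the pathway were read from lists of known genes, whose counts stand beside 27.1% of all genes called under stress in HIN1 and 31.6% in WT. Of 6 further chain elongation genes, edgeR and DESeq2 called 0 in either genotype, and at an unadjusted p below 0.05 there were 2 higher in HIN1 and 0 in WT. IIL1, the large subunit of isopropylmalate isomerase, stood at 207.1 ± 14.7 RPKM in HIN1 stress and 190.3 ± 12.2 RPKM in HIN1 control, and at 202.9 ± 5.33 RPKM in WT stress and 190.1 ± 10.8 RPKM in WT control. IMD1, the isopropylmalate dehydrogenase of this pathway, stood at 131.7 ± 17.4 RPKM in HIN1 stress and 137.6 ± 19.2 RPKM in HIN1 control, and at 128.8 ± 3.04 RPKM in WT stress and 141.1 ± 13.7 RPKM in WT control. Of 7 core structure genes 1 rose in each genotype, the glutathione transferase GSTU20. It rose 1.59-fold in HIN1 (adjusted p = 0.00305) and 1.65-fold in WT (adjusted p = 0.0017). DESeq2 called 2 of the 7 higher in HIN1 and 1 in WT. At an unadjusted p below 0.05, 4 were higher in HIN1 and 1 in WT, against 38.7% and 42% of all genes in either direction. Without the 2 libraries that stood apart, 2 chain elongation genes and 4 core structure genes rose in HIN1.

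Of 9 side chain modification genes 8 were tested, AOP3 being near 0 in all groups, and 4 rose in HIN1 and 6 in WT. The flavin monooxygenase gene FMO GS-OX2 stood at 24.4 ± 3.01 RPKM in HIN1 stress and 8.55 ± 0.759 RPKM in HIN1 control, and at 28.5 ± 1.86 RPKM in WT stress and 10.5 ± 1.79 RPKM in WT control. It rose 2.85-fold in HIN1 (adjusted p = 1.1e-05) and 2.58-fold in WT (adjusted p = 1.61e-05). AOP2, a dioxygenase gene known to carry a disabling deletion in Col-0, rose 2.17-fold in HIN1 (adjusted p = 3.28e-05) and 1.74-fold in WT (adjusted p = 0.000241). GSL-OH, a dioxygenase that hydroxylates alkenyl side chains, rose 1.67-fold in HIN1 (adjusted p = 0.000111) and 1.40-fold in WT (adjusted p = 0.00158). FMO GS-OX3 rose 1.58-fold in HIN1 and 1.37-fold in WT (adjusted p = 0.00161 and 0.0113). The remaining WT calls, named after their values were seen, were BZO1 and FMO GS-OX4. BZO1 was near 0, at 0.189 RPKM in WT stress and 0.0285 RPKM in WT control. Its fold was 6.21 (adjusted p = 0.0114), or 10.1 without WT control replicate 3. No control library exceeded 0.0986 CPM in WT or 0.0637 CPM in HIN1, fewer than the 10 reads of the low-count filter. BZO1 thus passed that filter only through stress libraries, so its call, counted among the 6, is no independent support for a rise. FMO GS-OX4 rose 1.39-fold (adjusted p = 0.0156), a call lost without WT stress replicate 1 or WT control replicate 1 (adjusted p = 0.0578 and 0.0528). Without the 2 libraries that stood apart, 4 of the list rose in each genotype.

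**Figure D4:**
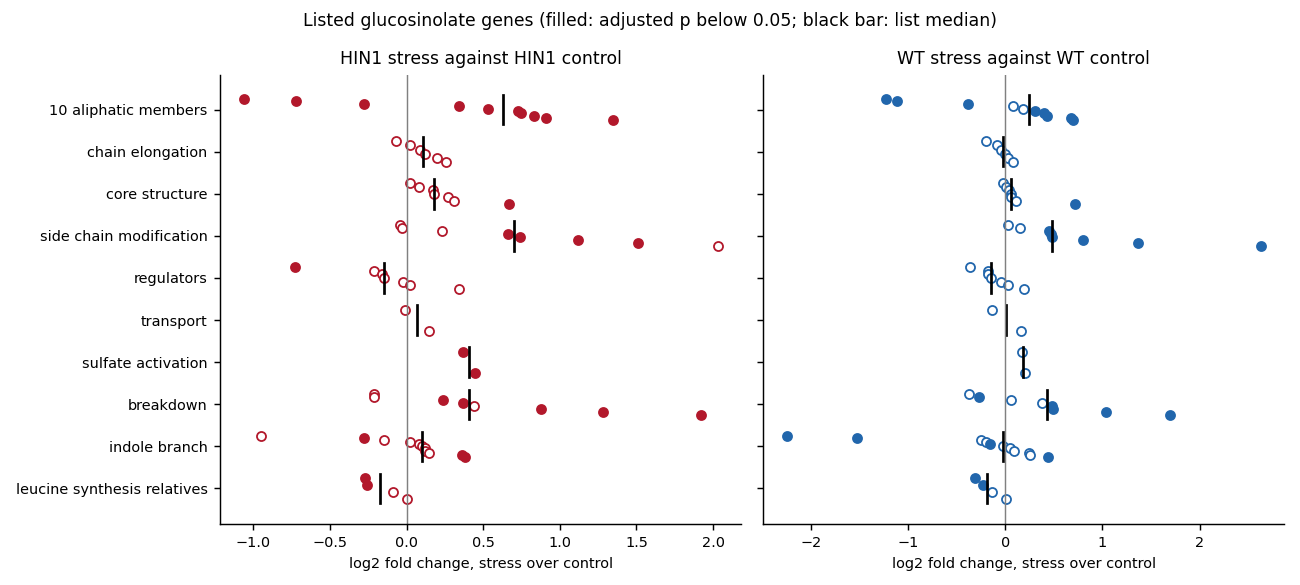
Log2 fold change under stress of every tested gene (points) in the listed steps of the pathway, for HIN1 and WT, with filled points for an adjusted p below 0.05 and a black bar at the list median. The 10 genes spread to both sides of 0, and the side chain modification genes have medians of 0.70 in HIN1 and 0.48 in WT.

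Of 7 other regulators, including the MYC factors that work with the MYB factors, 1 fell in HIN1 and 0 in WT. The gene was SDI1, a repressor of the pathway known from sulfur deficiency, at 0.604 of its control level in HIN1 (adjusted p = 0.0151). The call was lost without HIN1 stress replicate 1 (adjusted p = 0.0576) or HIN1 control replicate 3 (adjusted p = 0.0545). In WT edgeR and DESeq2 called 0 of the 7, and 0 had an unadjusted p below 0.05. MYC3 stood at 36.6 ± 1.57 RPKM in WT stress and 36.0 ± 2.64 RPKM in WT control, and MYC2 at 34.0 ± 2.02 RPKM in WT stress and 41.6 ± 20.7 RPKM in WT control. Both genes of APS kinase, which activates sulfate for the last step of the core, rose in HIN1: APK1 1.37-fold (adjusted p = 0.00261) and APK2 1.29-fold (adjusted p = 0.0026). In WT edgeR and DESeq2 called 0 of these 2, both had an unadjusted p below 0.05, and the log2 fold changes were 0.20 for APK1 and 0.17 for APK2. Neither transporter gene, GTR1 or GTR2, was called by edgeR or DESeq2 in either genotype, with 0 at an unadjusted p below 0.05. GTR2 stood at 43.5 ± 4.87 RPKM in HIN1 stress and 39.0 ± 0.277 RPKM in HIN1 control, and at 45.7 ± 3.62 RPKM in WT stress and 39.1 ± 1.65 RPKM in WT control. GTR1 stood at 26.9 ± 2.55 RPKM in HIN1 stress and 27.1 ± 3.08 RPKM in HIN1 control, and at 27.2 ± 2.65 RPKM in WT stress and 28.6 ± 4.18 RPKM in WT control.

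Of 8 breakdown genes 5 rose in HIN1, and in WT 4 rose and 1 fell. The gene of the epithiospecifier protein ESP, which steers breakdown away from isothiocyanates, stood at 16.6 ± 3.4 RPKM in HIN1 stress and 4.40 ± 1.46 RPKM in HIN1 control, and at 20.6 ± 1.68 RPKM in WT stress and 6.03 ± 0.68 RPKM in WT control. ESP rose 3.78-fold in HIN1 (adjusted p = 6.67e-05) and 3.26-fold in WT (adjusted p = 0.000105). The myrosinase gene TGG2 rose 1.84-fold in HIN1 (adjusted p = 0.000285) and 1.40-fold in WT (adjusted p = 0.0088). BGLU28, a beta-glucosidase gene, rose 2.42-fold in HIN1 (adjusted p = 0.00348) and 2.06-fold in WT (adjusted p = 0.0102). TGG1, the other leaf myrosinase, rose 1.29-fold in HIN1 (adjusted p = 0.0208), a call lost without HIN1 stress replicate 1 or HIN1 control replicate 1 or 2 (adjusted p = 0.0769, 0.0718 and 0.0671). The nitrile specifier gene NSP5 rose 1.39-fold in WT (adjusted p = 0.000992) and 1.18-fold in HIN1 (adjusted p = 0.0477). The HIN1 call was lost without any single HIN1 library, WT stress replicate 1 or WT control replicate 1 (adjusted p of up to 0.158). The gene that fell in WT was NSP1, to 0.829 of its control level (adjusted p = 0.02), a call lost without WT stress replicate 1 or WT control replicate 3 (adjusted p = 0.071 and 0.0541). NSP1, and NSP5 in HIN1, were named after their values were seen. Without the 2 libraries that stood apart, 4 breakdown genes rose and 1 fell in HIN1, and 5 rose and 1 fell in WT.

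The indole branch starts from tryptophan. Of its 11 listed genes, 2 rose and 1 fell in HIN1, while 1 rose and 3 fell in WT, shares close to the 27.1% and 31.6% of all genes called. GSTF9, a glutathione transferase, rose in both genotypes (1.28-fold in HIN1, adjusted p = 0.0057, and 1.35-fold in WT, adjusted p = 0.00152). CYP79B2, which makes indole acetaldoxime, rose 1.30-fold in HIN1 (adjusted p = 0.016), and GSTF10 fell there to 0.824 of its control level (adjusted p = 0.0205). In WT the monooxygenase gene CYP81F2 fell to 0.211 of its control level (adjusted p = 0.000693) and the indole regulator MYB51 to 0.346 (adjusted p = 0.00468). MYB51 ran from 21.7 to 63.9 CPM in WT control, and without WT control replicate 1 it fell to 0.525 (adjusted p = 0.00766). UGT74B1 fell in WT to 0.897 (adjusted p = 0.0322). Without 1 library the call was lost for CYP79B2 (HIN1 stress replicate 2, HIN1 control replicate 2 or 3), for GSTF10 (HIN1 stress replicate 1 or 2, HIN1 control replicate 1) and for UGT74B1 (WT stress replicate 1 or 2, any WT control replicate), with adjusted p-values of up to 0.0629, 0.0836 and 0.106. Of the 4 leucine synthesis relatives of the elongation enzymes, IPMS1 and IMD2 fell in both genotypes, at 0.837 and 0.827 of the control level in HIN1 and at 0.807 and 0.852 in WT (adjusted p = 0.0319, 0.0051, 0.0117 and 0.0112). The calls of IPMS1 were lost without HIN1 stress replicate 1 or 2 or HIN1 control replicate 1 or 3 in HIN1 (adjusted p of up to 0.106) and without WT stress replicate 1 in WT (0.0518), and that of IMD2 in WT without WT stress replicate 3 or WT control replicate 2 (0.0542 and 0.0516).

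These lists held 41 further pathway genes, 11 of the indole branch and 4 leucine synthesis relatives, all tested but AOP3. Between genotypes, edgeR called 1 gene of all these lists at control and 2 under stress, where 2.76% and 3.42% of all genes were called. BGLU30, a beta-glucosidase gene, was higher in HIN1 at control (2.79-fold, adjusted p = 0.00216) and under stress (2.90-fold, adjusted p = 0.000833). CYP81F2 was higher in HIN1 under stress (2.84-fold, adjusted p = 0.0387). That call was lost without HIN1 stress replicate 2 or 3, any HIN1 control replicate, or WT stress replicate 1 or 2, with adjusted p-values of up to 0.173. DESeq2 called 7 genes of these lists at control, where it called 6.18% of all genes. Of these 7, BGLU30 and FMO GS-OX4 were higher in HIN1, and BAT5, AOP2, TGG2, NSP1 and APK1 lower, at 0.763 to 0.855 of the WT level. Under stress it called 3 genes, BGLU30 and CYP81F2 higher and SDI1 lower, where it called 4.2% of all genes.

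Over the 12 libraries the 10 genes fell into a large and a small set by the Pearson correlation of log2 CPM. These values describe libraries that share treatments, genotypes and sequencing, and carry no test. BCAT4, MAM1, CYP79F1, CYP83A1, FMO GS-OX1, MYB29 and MYB76 correlated with one another at 0.89 to 0.98. MAM3 and CYP79F2 correlated at 0.96 with each other, and at -0.55 to -0.88 with the 7 genes of the large set. MYB28 correlated with CYP79F2 at 0.73 and with MAM3 at 0.65, and with the large set at -0.53 to -0.26.

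**Figure D5:**
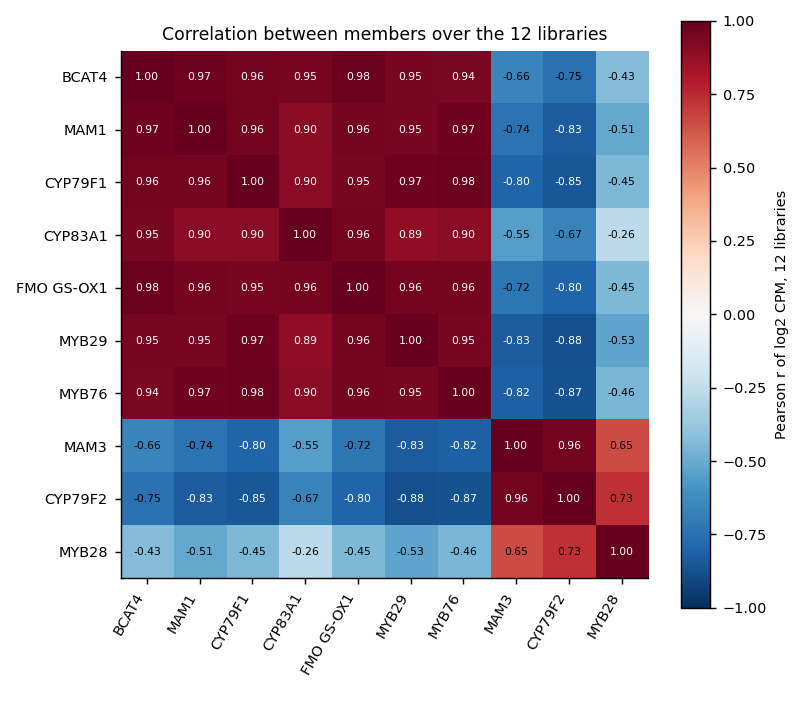
Pearson correlation of log2 CPM over the 12 libraries for each pair of the 10 genes, from -1 (blue) to 1 (red). A block of 7 genes correlates at 0.89 or more, and MAM3, CYP79F2 and MYB28 correlate negatively with that block.

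The genes with the most similar pattern were ranked for each of the 10 among the 16746 genes that averaged 5 CPM or more. AK3 (AT3G02020) was nearest to FMO GS-OX1 at 0.989, and to MAM1 and BCAT4 at 0.981 each. CYP79F1 had AOP2 as its nearest gene at 0.979, and CYP83A1 had APK1 at 0.96. For MYB29 the nearest were AT1G21440 at 0.991 and HMT3 (AT3G22740) at 0.99, and for MYB76 the nearest was AT4G34881 at 0.98. MAM3 was nearest to PAL2 (AT3G53260) at 0.985, CYP79F2 to AT5G58370 at 0.989 and MYB28 to AT3G06130 at 0.952. Among the 20 nearest genes, the number from the 10 or the listed pathway genes was 9 for BCAT4 and CYP83A1, 8 for FMO GS-OX1, 7 for CYP79F1, 6 for MAM1, 4 for MYB29 and MYB76, 1 for MAM3, and 0 for CYP79F2 and MYB28.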

How the data were processed

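Poly-A RNA was sequenced from stranded libraries. The authors deposited, for each library, an estimated count of reads per gene, the RPKM of each gene, and the fraction of its reads that map to several sites, per the file headers. The authors' 3 deposited comparison tables hold, per the file headers, log2 fold changes, p-values with adjusted values, the mean signal per gene as normalized reads, and as scores the standard error and test statistic. CASAVA, bcl2fastq 1.8.4, Trimmomatic 0.35, Bowtie2, DESeq2 and the build TAIR10 are named in the submitters' processing notes. The tool that counted reads, its annotation release and its use of strand were not given in the sources used here.

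Estimated counts, rounded to whole numbers, entered edgeR 4.0.16 in R 4.3.3 (filterByExpr, minimum count 10; TMM factors 0.947 to 1.033; 1 quasi-likelihood fit of the 4 groups with 8 residual degrees of freedom; two-sided contrasts; Benjamini-Hochberg adjustment over 22924 genes; calls at an adjusted p below 0.05). Standard errors come from the size of a log2 fold change over the root of its F statistic. DESeq2 1.42.0 was an alternative. The edgeR fit was tested on simulated data. Levels per gene are the deposited RPKM, mean ± SD over 3 libraries, and correlations use log2 CPM with a prior count of 2. Ratios of RPKM were compared with an exact permutation test. P-values cover the spread between experiments of 1 transgenic line.

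All 10 genes were named in every comparison, with up to 4 called genes of each further list in order of adjusted p, or up to 2 of highest mean where none was called. Leaving out 1 library for the genes of the further lists was chosen after seeing the data, as was naming their DESeq2 calls between genotypes. The members and lists were chosen with earlier results of these data known. The labels do not say that a replicate number marks a shared batch, so the numbers were not used to pair libraries. Same-numbered libraries of different groups had residual correlations of -0.11 to 0.195 (median 0.00518), and different-numbered ones of -0.198 to 0.148 (median -0.0224). The library numbered 3 had the highest share of reads at several sites in every group, at 1.84% to 2.6%, as it had for chloroplast reads. Of 33602 deposited identifiers, 27998 were found as locus tags in RefSeq's TAIR10.1 annotation, from which names, positions and sequences come.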

Additional observations from a re-analysis of the deposited data

How the results depend on the processing

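Of 1040 values of single genes under the alternatives, 984 kept their direction and their side of the threshold, 31 lost a call, 6 gained one and 19 changed sign. For WT stress against WT control, 7 to 9 of the 10 genes were called under every alternative, and for HIN1 stress against HIN1 control 9 or 10. Over all genes the calls in WT ran from 5136 of 23144 (without WT stress replicate 1) to 7846 of 24568 (DESeq2). In HIN1 they ran from 4538 of 22991 (libraries numbered 1 and 2 only) to 6915 of 25100 (DESeq2). For HIN1 against WT at control, the main fit had 2 calls, where 633 of 22924 genes were called. There was 1 with library totals (704 of 22924 genes called), 5 with DESeq2 (1486 of 24035) and 0 with only the groups compared (300 of 22313). Leaving out 1 library gave 0 to 2 calls, while the calls over all genes ran from 348 to 2288. Without WT control replicate 1 and HIN1 stress replicate 3 together there were 0, where 334 of 23039 genes were called. That alternative was chosen after seeing the data. The interaction had 0 calls except 1 with DESeq2. The replicate number as a block left the counts at 8, 10, 2, 0 and 0. Each of 6 of the 12 libraries correlated best with a library of its own number. With library totals the split of all genes in WT under stress was 4710 higher and 2861 lower, against 3416 and 3823, and the median shifted to 0.0687.

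None of the sign changes touched a called value, and the cause was not tested. For HIN1 against WT under stress, MYB28, MYB29 and MYB76 turned to 0.0081, 0.13 and 0.14 with libraries 1 and 2 only. MYB29 and MYB76 turned to 0.098 and 0.12 without both libraries that stood apart. Leaving out 1 library gave 8 more in this comparison, with CYP79F1 at -0.064, -0.025 and -0.024, FMO GS-OX1 at -0.019, MYB28 at 0.0054 (over all 12 such fits it ran from -0.22), MYB29 at 0.1 (from -0.15), and MYB76 at 0.015 and 0.13 (from -0.12). At control, MAM3 turned to 0.00098 with libraries 1 and 2 only, and CYP79F2 to -0.049 without HIN1 control replicate 1. In the interaction CYP79F2 turned to -0.0034 with library totals, and to -0.0094 and -0.028 without 1 library (up to 0.21), and MYB28 to -0.0093 (up to 0.21). The log2 ratio of CYP79F1 to CYP79F2 between genotypes under stress ran from -0.25 to 0.04 when 1 library was left out, 0.04 without HIN1 stress replicate 3.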
